A study of Bos taurus with 2 samples.

Results

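The replication licensing genes MCM2, MCM3, MCM4, MCM5, MCM6, MCM7, MCM10, CDC6, CDT1 and GMNN were followed across cultured bovine satellite cells. They were chosen by name, as 10 of the 21867 genes in the deposited feature list, and all 10 were found there once. The cells came from the longissimus muscle of 1 Holstein bull calf aged 2 weeks, carried no stated genetic change or treatment, and were cultured in growth medium for 1 week before single-cell RNA sequencing. The 2 libraries were prepared from the same culture, so errors over libraries cover preparation and sequencing only, and nothing here measures how calves differ. The 19096 cells fall into 15 clusters made by the authors, 7 of which (1, 2, 3, 4, 5, 8 and 12) the study treated as myogenic and ordered along 2 paths that leave cluster 8.

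Replication licensing is the loading of the MCM2 to MCM7 ring, the core of the replicative helicase, onto DNA in late mitosis and G1 phase, before DNA synthesis starts. The origin recognition complex, CDC6 and CDT1 load the ring, and geminin, encoded by GMNN, binds CDT1 once S phase has begun so that no origin is loaded again in the same cycle. MCM10 acts later, when loaded rings are turned into moving helicases. In muscle, satellite cells normally rest without dividing, and once activated they divide as myoblasts before they differentiate. Myocytes, the differentiated cells, have left the cell cycle.

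Library 1 held 9939 cells with 145631299 unique molecular identifiers (UMIs, each marking 1 captured RNA molecule), and library 2 held 9157 cells with 137818568 UMIs. A level is given below as UMIs of the gene per 10000 UMIs of all genes, first in library 1 and then in library 2. Such levels depend on how well the 3′ end of each transcript is captured, so they were compared between clusters. Shares and ratios of genes are given below, and these too are read only from cluster to cluster. A lower level in a cluster can reflect fewer cells with the transcript or fewer transcripts per cell, which the sums of a cluster do not separate. The 10 genes gave from 157 UMIs (CDT1) to 53351 UMIs (MCM7), and the 6 ring subunits together gave 207844 UMIs in 17194 cells. Clusters 7, 13 and 15 had median depths of 1389, 1631 and 647 UMIs per cell, against 12929 to 23011 in the 10 deepest clusters, and 27 cell barcodes occurred in both libraries. Markers of the labelled cell type were scarce, with 492 UMIs of PAX7 and PAX3 in all cells. The summed level of the myocyte markers MYOG, MYH3 and MYMK was highest in cluster 12, at 37.3 ± 1.81 UMIs per 10000 (SD, n = 2 libraries). Endothelial, immune and Schwann cell markers summed to 183, 647 and 7 UMIs.

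Summed over the 6 ring subunits, the level was highest in clusters 6 and 11 and lowest in cluster 12. Cluster 6 had 13.1 and 12.9 UMIs of MCM2 to MCM7 per 10000 and cluster 11 had 12.9 and 12.6. Cluster 12, the cluster with the most myocyte marker RNA, had 1.49 and 1.73. Cluster 6 was followed by clusters 11 (mean ± SD, 12.8 ± 0.206) and 7 (12.2 ± 1.18), and the libraries of cluster 7, at 13.02 and 11.3, overlapped with those of both 6 and 11. MCM7 and MCM6 were highest by mean in cluster 7 itself, with 3.94 and 3.63 UMIs of MCM7 per 10000 against 2.88 and 2.89 in cluster 11, and 1.05 and 0.952 UMIs of MCM6 against 0.903 and 0.948 in cluster 6. MCM6 in cluster 7 rests on 210 UMIs. Its exact Poisson interval over both libraries, 0.863 to 1.14, holds the levels of clusters 6 (0.925) and 11 (0.904). The other 4 subunits were highest by mean in cluster 6 or 11. Clusters 2 (9.29), 9 (9.09), 4 (8.45) and 5 (8.37) came next, with overlapping libraries in 4 and 5. The shallow or unnamed clusters 15 (7.17), 10 (6.32), 14 (6.20) and 13 (5.41) lay between these and the 4 low clusters. The low clusters were 3 (3.04), 1 (2.97), 8 (2.70) and 12 (1.61), and the libraries of 3 and 1 overlapped. Clusters 8, 1, 3 and 12 are, in this order, the steps of 1 myogenic path.

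MCM10 followed the ring subunits, with 1.00 and 1.11 UMIs per 10000 in cluster 11, 0.939 and 0.924 in cluster 6, and 0.0488 and 0.0687 in cluster 12. The libraries of its 2 highest clusters did not overlap with each other or with the rest. Its level in cluster 7 (0.562 ± 0.0409) was below that in cluster 9 (0.693 ± 0.0350), whereas the summed ring level was higher in cluster 7 than in cluster 9.

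CDC6, which takes part in loading the ring, had a narrower pattern. It stood at 0.384 and 0.359 UMIs per 10000 in cluster 6, and at 0.368 and 0.342 in cluster 11. The libraries of these 2 clusters overlapped and lay above those of every other cluster, and together they held 48.7% of all CDC6 UMIs and 29.2% of the ring UMIs. Cluster 5 had 0.218 and 0.217, and cluster 9 had 0.192 and 0.192. Clusters 4 and 2, whose ring levels were near those of clusters 5 and 9, had much less CDC6: 0.0626 and 0.0724 in cluster 4, and 0.0599 and 0.0456 in cluster 2. The ratio of CDC6 UMIs to ring UMIs was 0.0261 ± 0.00153 in cluster 5, against 0.00799 ± 0.000694 in cluster 4 and 0.00568 ± 0.00105 for cluster 2. In clusters 1, 3, 8 and 12 the CDC6 level was between 0.0121 and 0.0202, and the libraries of cluster 3 overlapped with those of clusters 1 and 12.

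After each cell of at least 5000 UMIs was thinned to 5000 UMIs (15996 cells), CDC6 had a UMI in 18.2% of the cells of cluster 6 (95% exact binomial interval 16.3 to 20.2%) and in 0.489% of the cells of cluster 12 (0.101 to 1.42%). Without thinning the shares were 46.7% and 1.91%, at median depths of 17967 and 19113 UMIs per cell. Cluster 12, whose cells have the myocyte markers, was taken as the class that should lack the gene, and the thinned shares in cluster 1 (0.691%), cluster 3 (0.492%) and cluster 8 (0.730%) lay within its interval. That interval rests on 3 of the 613 cells of cluster 12 and covers counting error only. It is too wide to show whether the shares in those 3 clusters differed from that of cluster 12. On all counts both libraries of cluster 8 (0.0170 and 0.0233 UMIs per 10000) and of cluster 1 (0.0169 and 0.0132) were above both of cluster 12 (0.0130 and 0.0112). These levels rest on 34, 51 and 15 UMIs, and their exact Poisson intervals over both libraries, 0.0139 to 0.0280, 0.0112 to 0.0198 and 0.00677 to 0.0199, overlapped.

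CDT1, the partner of CDC6 in loading, was close to undetected, with 157 UMIs in 155 cells. Cluster 6 had 41 of these UMIs, cluster 11 had 25, cluster 9 had 24 and cluster 5 had 20. No CDT1 UMI was found in clusters 13 and 15, which allows up to 0.0302 and 0.137 UMIs per 10000. These limits are above the highest CDT1 level of any cluster, 0.0179 ± 0.00952 in cluster 7, so the 2 zeros carry no information.

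GMNN, the inhibitor of loading, was highest in cluster 11, at 1.26 and 1.32 UMIs per 10000, and in cluster 6, at 1.23 and 1.22. Clusters 5 (0.972 ± 0.0387), 9 (0.878) and 4 (0.763) followed, with no overlap among these 3, and cluster 2 had 0.662 and 0.611. Cluster 8 had 0.314 and 0.285, above cluster 1 at 0.192 and 0.189, cluster 3 at 0.151 and 0.157 and cluster 12 at 0.0862 and 0.0959. Per ring UMI, mean GMNN was highest in clusters 5 (0.116 ± 0.00187) and 8 (0.111 ± 0.00681) and lowest in clusters 7 (0.0475 ± 0.000697) and 3 (0.0508 ± 0.00151). The libraries of cluster 15 (0.127 and 0.0833) overlapped with those of 5 and 8, and those of cluster 14 (0.0740 and 0.113) with those of 8. The libraries of cluster 13 (0.0602 and 0.0472) overlapped with those of 3 and 7. Cluster 7 had 121 GMNN UMIs, and an SD of 2 libraries can fall below the counting error.

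**Figure D1:**
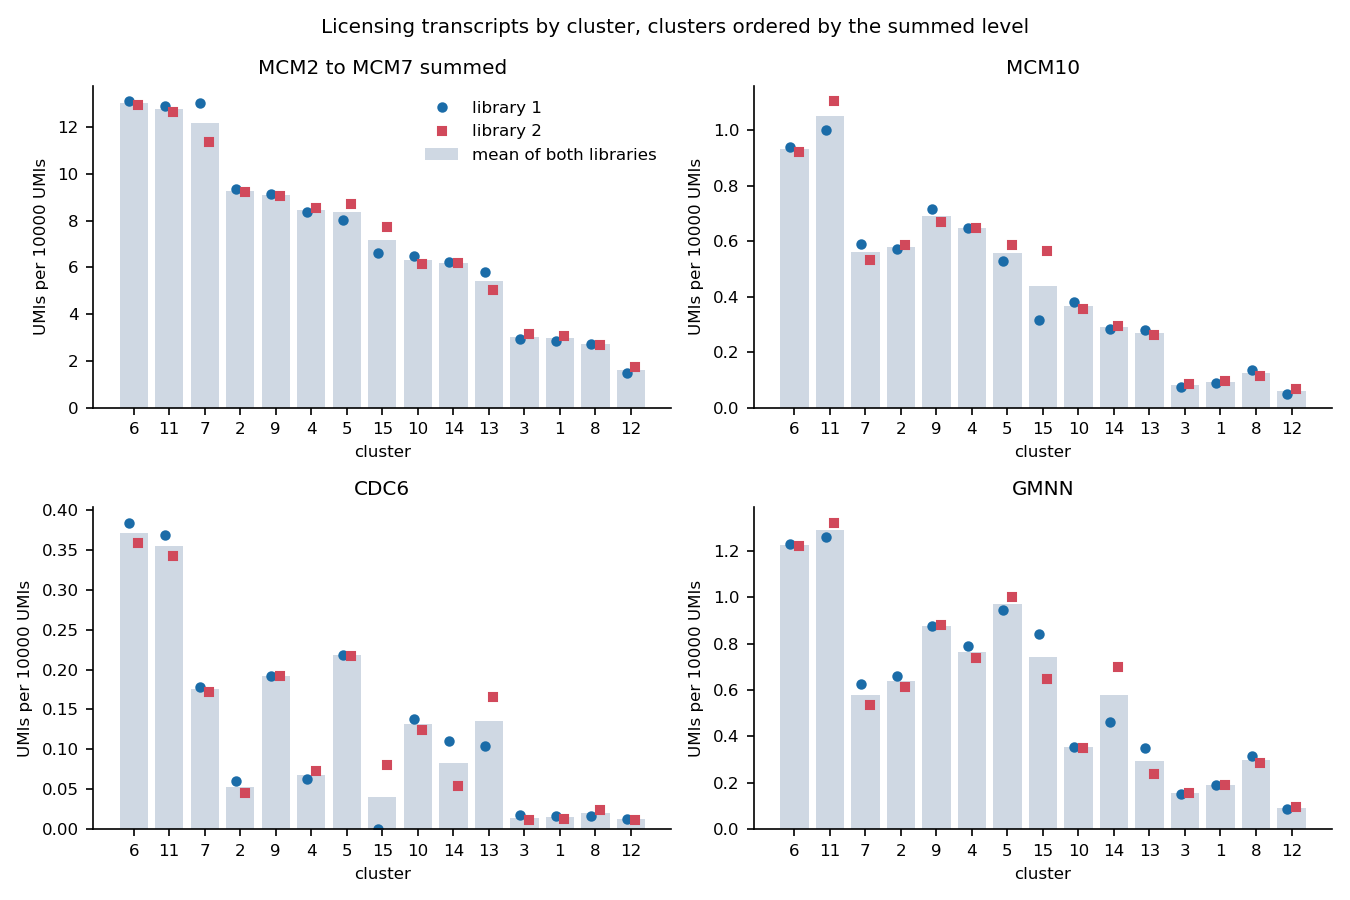
UMIs per 10000 UMIs (vertical axis) of MCM2 to MCM7 summed, MCM10, CDC6 and GMNN in each of the 15 clusters, ordered by the summed level, with a bar for the mean and a point for each of 2 libraries. Clusters 6 and 11 are highest in all 4 panels, clusters 3, 1, 8 and 12 are low, and CDC6 is low in clusters 2 and 4 where the summed level is not.

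The steps of the myogenic paths were then compared with edgeR's quasi-likelihood test on UMIs summed per cluster and library, 2 sums against 2, with Benjamini-Hochberg adjustment over all genes tested and calls at an adjusted p under 0.05. The clusters were made from the same counts, so these p-values describe the spread between libraries and are not independent evidence that the cells form groups. CDT1 had too few UMIs for the test in 5 of the 7 comparisons.

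The step from cluster 8 to cluster 5, both of which the study named PAX3-positive satellite cells, carried the largest changes in members. MCM3 had 0.353 and 0.304 UMIs per 10000 in cluster 8 and 1.39 and 1.46 in cluster 5. CDC6 had 0.0170 and 0.0233 in cluster 8 and 0.218 and 0.217 in cluster 5. All 9 members tested were called higher in cluster 5, where 16.3% of all 10948 genes tested were called higher. CDC6 rose by 3.44 ± 0.166 (log2 fold change ± SE, edgeR adjusted p = 1.11e-05), which is 10.8-fold. It rose by 2.42 when cells were assigned to clusters without the 10 members, and stayed called. MCM10 rose by 2.16 ± 0.105, MCM3 by 2.12 ± 0.0801 and MCM5, the subunit that closes the ring next to MCM2, by 1.90 ± 0.0718. MCM4 (1.85), GMNN (1.70) and MCM2 (1.61) were in the middle. MCM7 (1.25 ± 0.0564) and MCM6 (1.16 ± 0.114) rose least. The median over the 9 members was 1.85, against -0.006 over all genes. Among 31 other genes of licensing and helicase activation that were tested, 23 were higher and none was lower. The 4 largest were E2F7 (3.40 ± 0.339) and E2F8 (3.24 ± 0.270), repressors of cell cycle genes, FBXO5 (2.93 ± 0.214), an inhibitor of the anaphase-promoting complex, and DTL (2.32 ± 0.199), the receptor of the ubiquitin ligase that removes CDT1. By doublet score, 14.7% of the cells of cluster 5 and 0.886% of those of cluster 8 were called doublets, and all 9 members stayed called when these were left out. An S phase list of 37 genes without the members summed to 8.65 ± 0.232 UMIs per 10000 in cluster 8 and 23.1 ± 0.271 in cluster 5. A G2/M list of 54 genes summed to 14.9 ± 0.0263 and 32.9 ± 0.253. The part of either list in these differences was not tested.

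From cluster 5 to cluster 4, the cluster the study named PAX7-positive satellite cells, CDC6 and GMNN fell and no ring subunit was called. CDC6 fell by 1.72 on the log2 scale (SE 0.104, edgeR adjusted p = 4.71e-05), to 0.304 of its level in cluster 5. GMNN fell by 0.38 (SE 0.0611, edgeR adjusted p = 0.00789). These 2 of 10 members tested were the only ones called lower, where 7.28% of 11311 genes were called lower, and no member was among the 9.16% called higher. CDT1, with 20 UMIs in cluster 5 and 12 in cluster 4, changed by -1.22 ± 0.489 on the log2 scale (edgeR adjusted p = 0.137). The ring subunits lay between -0.21 ± 0.101 (MCM6) and 0.19 ± 0.0722 (MCM2). With the library as a block, 35.2% of all genes and 7 of the 10 members were called. These were CDC6, GMNN, MCM3 (-0.17), MCM6 (-0.21) and CDT1 (-1.22, adjusted p = 0.0480) as lower, and MCM2 (0.19) and MCM10 (0.19) as higher. Assignment of cells by profile also called MCM3 lower (-0.19, adjusted p = 0.0313). Of 31 other licensing genes, 10 were higher and 2 were lower. DBF4, the activating subunit of the CDC7 kinase that fires loaded origins, rose by 1.88 ± 0.0724, E2F8 by 1.39 ± 0.124, TICRR, which brings CDC45 to the ring, by 1.37 ± 0.182 and FBXO5 by 1.21 ± 0.0799. The summed level of the G2/M list was 32.9 ± 0.253 UMIs per 10000 in cluster 5 and 142 ± 4.20 in cluster 4, and its part in these differences was not tested.

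From cluster 4 to cluster 2, MYOD1-positive myoblasts in the study's naming, the changes in members were small. MCM3 had 1.29 and 1.29 UMIs per 10000 in cluster 4 and 1.67 and 1.57 in cluster 2. MCM6 had 0.519 and 0.571 in cluster 4 and 0.710 and 0.707 in cluster 2. These 2 subunits were called higher (MCM3 0.31 ± 0.0457, edgeR adjusted p = 0.00308, MCM6 0.36 ± 0.0578, edgeR adjusted p = 0.00438), 2 of 9 members where 14.5% of 11561 genes were called higher. GMNN (-0.28 ± 0.0626, edgeR adjusted p = 0.0174) and MCM10 (-0.18 ± 0.0477, edgeR adjusted p = 0.0314) were called lower, where 15.7% of genes were. Both calls were lost under DESeq2, with adjusted p of 0.0565 and 0.271, and without the filter on low counts, with 0.0533 and 0.0639, and MCM10 also in 1 fit over all clusters (adjusted p = 0.135) and with cells assigned by profile (adjusted p = 0.197). The block called 6 of 9 members, adding MCM2 (0.15) and MCM5 (0.09) as higher, with 47.1% of all genes called, and the same 2 were added by profile (0.23 and 0.19). Among 32 other licensing genes, 5 were higher and 4 were lower. SKP2, a subunit of a ubiquitin ligase that promotes entry into S phase, rose by 0.86 ± 0.0974 and E2F4 by 0.45 ± 0.0562, while FBXO5 fell by 0.62 (SE 0.0667) and E2F7 by 0.53 (SE 0.149).

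On the other path, cluster 8 was followed by the MYF5-positive myoblasts of cluster 1. GMNN was lower in cluster 1 by 0.62 on the log2 scale (SE 0.0879, edgeR adjusted p = 0.00108), as given by levels of 0.192 and 0.189 against 0.314 and 0.285 UMIs per 10000. MCM10, at 0.0879 and 0.0945 against 0.135 and 0.114, was also lower (-0.42 ± 0.136, edgeR adjusted p = 0.0461). These were 2 of 9 members, where 16.9% of 11194 genes were called lower. MCM3 (0.36 ± 0.0854, edgeR adjusted p = 0.0136) and MCM7 (0.20 ± 0.0593, edgeR adjusted p = 0.0355) were called higher, where 17.2% of genes were. The calls of MCM10, MCM3 and MCM7 were lost under DESeq2 (adjusted p of 0.340, 0.0727 and 0.149), and that of MCM7 also when doublets were left out (adjusted p = 0.119) and without TMM scaling (adjusted p = 0.0693). MCM10 was not called without the filter on low counts (adjusted p = 0.0656), nor MCM3 and MCM7 when cells were assigned by profile (adjusted p of 0.103 and 0.157). With the library as a block, under which 46.2% of genes were called, MCM5 (0.18) joined the other 4. Among 29 other licensing genes, 4 were higher and 3 were lower. SKP2 rose by 2.08 ± 0.191 and E2F4 by 0.44 ± 0.101. Subunits of the GINS complex, which joins the ring in the active helicase, went different ways. GINS4 and GINS1 fell by 0.82 (SE 0.206) and 0.44 (SE 0.0845). GINS2 was called higher (0.39 ± 0.128, edgeR adjusted p = 0.0450), and GINS3 was not called (-0.10 ± 0.284).

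Between cluster 1 and cluster 3, the first MYOG-positive cluster, MCM2 rose and GMNN fell by similar amounts. The change of GMNN was -0.42 when doublets were left out. MCM2 had 0.313 and 0.341 UMIs per 10000 in cluster 1 and 0.362 and 0.421 in cluster 3. It was called higher (0.29 ± 0.0824, edgeR adjusted p = 0.0264), 1 of 9 members where 21.1% of 11362 genes were called higher. GMNN (-0.27 ± 0.0753, edgeR adjusted p = 0.0265) and MCM3 (-0.20 ± 0.0616, edgeR adjusted p = 0.0372) were called lower, where 19.1% of genes were. None of these 3 calls held under DESeq2, with adjusted p of 0.0922, 0.315 and 0.284, and MCM2 was not called without TMM scaling (adjusted p = 0.0575), nor MCM3 in 1 fit over all clusters (adjusted p = 0.0616). Assignment of cells by profile added MCM10 as lower (-0.41, adjusted p = 0.0306, against -0.15 and adjusted p = 0.375 with the authors' clusters). The block called 5 of 9 members, adding MCM5 (0.16) and MCM6 (0.23), with 55.2% of all genes called. Of 30 other licensing genes, 9 were higher and 2 were lower, led by the transcription factor E2F1 (0.58 ± 0.191), the ligase scaffold CUL4A (0.52 ± 0.0685), the origin recognition subunit ORC2 (0.50 ± 0.0869) and SKP2 (0.46 ± 0.110). The summed ring level was 2.86 and 3.08 UMIs per 10000 in cluster 1 and 2.92 and 3.16 in cluster 3, with overlapping libraries.

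The drop in ring subunits lay between cluster 3 and cluster 12, the other MYOG-positive cluster. MCM2 had 0.362 and 0.421 UMIs per 10000 in cluster 3 and 0.132 and 0.184 in cluster 12. MCM5 had 0.536 and 0.595 in cluster 3 and 0.252 and 0.260 in cluster 12. MCM7 had 0.975 and 1.05 in cluster 3 and 0.581 and 0.639 in cluster 12. All 6 subunits and GMNN, 7 of the 9 members tested, were called lower in cluster 12, where 15.6% of 10811 genes were. MCM2 fell by 1.21 on the log2 scale (SE 0.144, edgeR adjusted p = 0.000505), MCM5 by 1.04 (SE 0.0870), MCM3 by 1.00 (SE 0.0927) and MCM4 by 0.95 (SE 0.102). MCM7 fell by 0.64 (SE 0.0706), GMNN by 0.66 (SE 0.124, edgeR adjusted p = 0.00494) and MCM6 by 0.43 (SE 0.120, edgeR adjusted p = 0.0272). The last 2 calls were lost under DESeq2, with adjusted p of 0.0657 for GMNN and 0.108 for MCM6. MCM10 (-0.35 ± 0.201) and CDC6 (-0.17 ± 0.438, from 52 and 15 UMIs) did not pass. The median over the members was -0.661, against -0.020 over all genes. Without TMM scaling the median of all genes moved to -0.117 and the calls from 1963 higher and 1687 lower to 1552 and 2527, and the same number of members, 7, was called lower. Of 29 other licensing genes, 5 were lower and none was higher, with GINS1 (-0.97 ± 0.194), GINS2 (-0.80 ± 0.223), the origin recognition subunit ORC6 (-0.66 ± 0.163) and CDC45, a part of the active helicase (-0.57 ± 0.123), as the 4 largest.

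Clusters 6 and 11, which had the highest summed ring levels and which the study left without an identity, differed by the test in 1 member. MCM3 had 2.95 and 2.90 UMIs per 10000 in cluster 6 and 2.53 and 2.30 in cluster 11, and was the 1 of 10 members called (0.34 ± 0.0534, edgeR adjusted p = 0.00548), where 8.75% of 11041 genes were called higher. CDC6 differed by 0.13 (edgeR adjusted p = 0.343), and was called higher in cluster 6 when cells were assigned by profile (0.27, adjusted p = 0.0487). The difference was -0.01 ± 0.0519 for GMNN and -0.03 ± 0.0498 for MCM4. A block called 2 of 10 members, MCM3 and MCM2 (0.14), with 31.4% of all genes called. Leaving out doublets, which were 18.7% of the cells of cluster 6 and 5.80% of those of cluster 11, also added MCM2 (0.22, adjusted p = 0.0191). SKP2 was the 1 of 32 other licensing genes that was called (0.87 ± 0.117 higher in cluster 6). The myoblast markers MYOD1, MYF5 and DES summed to 10.6 UMIs per 10000 in cluster 6 and 3.26 in cluster 11.

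**Figure D2:**
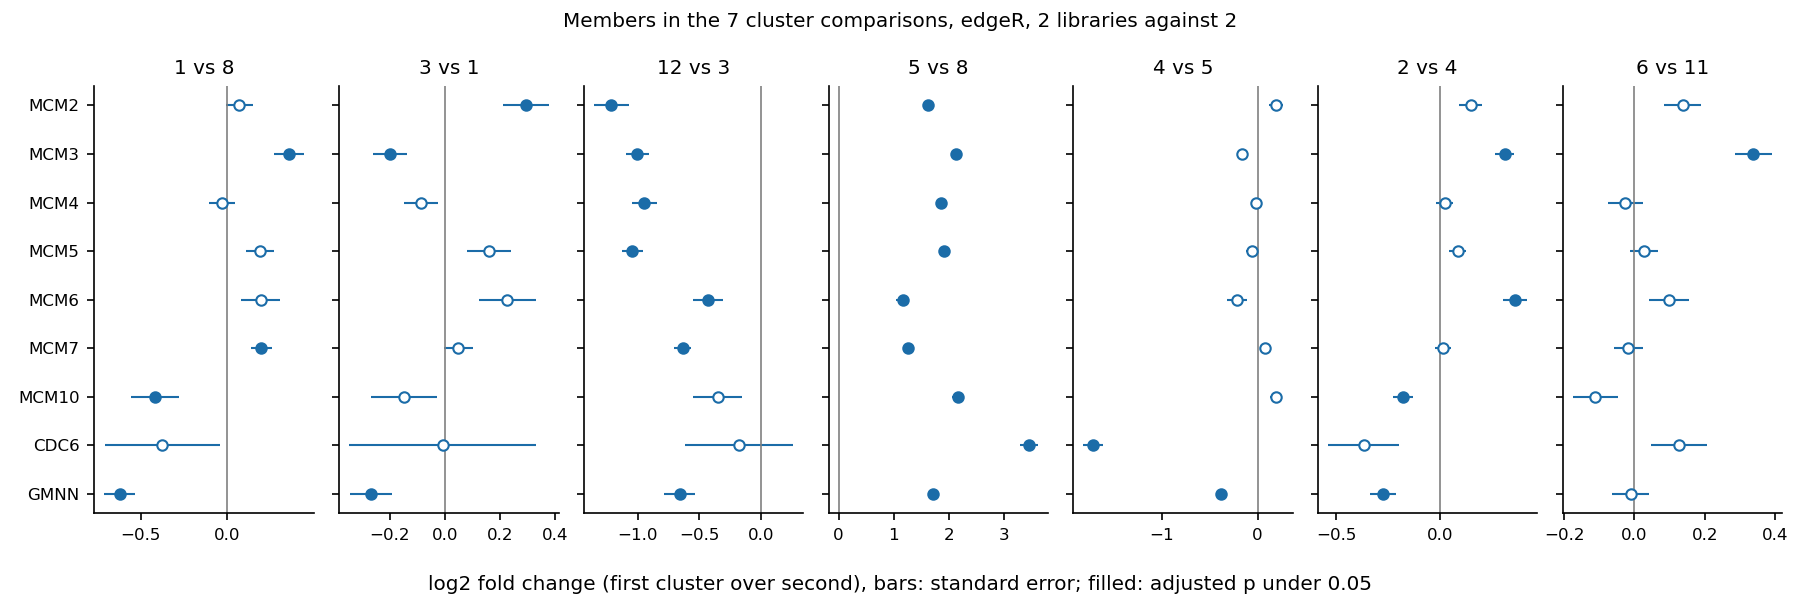
Log2 fold change (horizontal axis, with its own range in each panel) of 9 members in the 7 comparisons of clusters, first cluster over second, with standard errors and filled points for an adjusted p under 0.05. All 9 points are far right in 5 vs 8, and all are left of the grey line in 12 vs 3, where the 6 ring subunits and GMNN are filled. In 4 vs 5 CDC6 lies furthest left of the drawn members, at -1.72. CDT1, at -1.22 and not called in that comparison, is not drawn.

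To follow the members along the cell cycle without using them, the 15996 cells of at least 5000 UMIs were ranked in each library by the share of UMIs from an S phase list of 37 genes and, separately, from a G2/M list of 54 genes, both without the members, and cut into 5 equal groups, with group 5 highest for the list. Because ranking and levels come from the same cells, the ratios are given as descriptions. In both libraries every member other than CDT1 was higher in each group than in the group before it along the S phase ranking. CDT1 rose at each step in the mean, but fell from group 1 to group 2 in library 2. The ring subunits summed went from 1.54 ± 0.127 UMIs per 10000 in group 1 to 13.7 ± 0.0938 in group 5, a log2 ratio of 3.15 ± 0.128 (SD, n = 2 libraries). Leaving CDT1 aside, CDC6 had the steepest course, from 0.00498 ± 0.00122 to 0.323 ± 0.0179, a log2 ratio of 6.04 ± 0.278 based on 25 and 1889 UMIs. Its log2 ratio was 5.12 ± 0.512 in the 7 myogenic clusters alone, from 18 and 684 UMIs, 5.42 ± 0.143 after thinning and 5.49 in 3 groups of cells, each time above those of the other 8 members. The ratio was 4.58 ± 0.145 for MCM10, 4.36 ± 0.0705 for MCM3, 4.03 ± 0.154 for MCM4 and 3.71 ± 0.0615 for GMNN. MCM5 (3.56 ± 0.174) and MCM2 (3.54 ± 0.0481) followed, and the ratios of MCM7 (2.21 ± 0.123) and MCM6 (2.14 ± 0.107) were the smallest, as in the comparison of clusters 5 and 8. CDT1 gave 2, 4, 22, 42 and 82 UMIs from group 1 to group 5.

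Along the G2/M ranking CDC6 and the ring parted. The ring subunits summed were highest in group 4, at 10.3 ± 0.0485 UMIs per 10000, and still at 8.67 ± 0.0242 in group 5. CDC6 was highest in group 3, at 0.262 ± 0.0115, and lower at 0.175 ± 0.00811 in group 4 and 0.0450 ± 0.00644 in group 5. GMNN went from 0.919 ± 0.0226 in group 4 to 0.640 ± 0.0209 in group 5. CDT1 gave 52 and 56 UMIs in groups 3 and 4 and 19 in group 5.

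**Figure D3:**
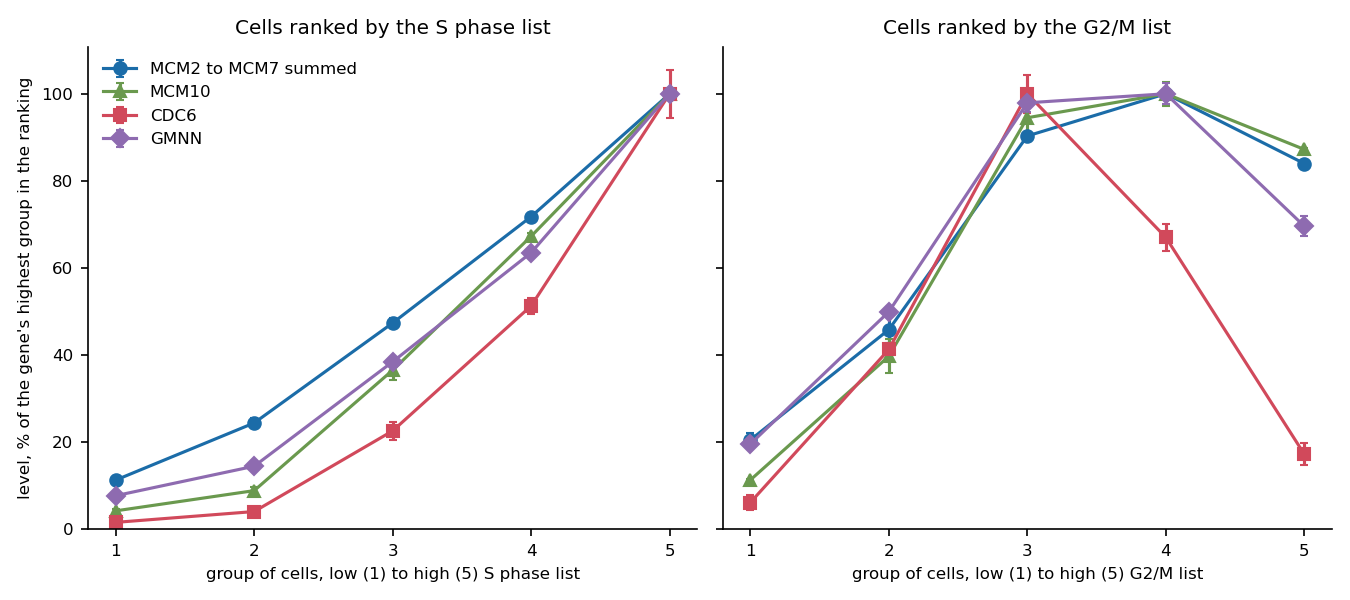
Level of MCM2 to MCM7 summed, MCM10, CDC6 and GMNN, as percent of the gene's highest group (vertical axis), over 5 equal groups of cells ranked by S phase list (left) or G2/M list (right), with the SD of 2 libraries. All 4 lines climb on the left, and on the right CDC6 drops from its peak of 0.262 to 0.0450 UMIs per 10000 in group 5 while the other 3 lines end higher.

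Cells were also split at the median of both lists, a grouping chosen after the rankings had been seen. CDC6 was 0.379 ± 0.0152 UMIs per 10000 in cells high for S phase and low for G2/M genes, and 0.171 ± 0.00987 in cells high for both. In cells low for S phase genes its level was 0.0197 ± 0.00236 when G2/M genes were high and 0.0175 ± 0.00114 when they were low, and the libraries of these 2 groups overlapped. The ring behaved otherwise. Its summed level was 10.9 ± 0.182 and 10.8 ± 0.00990 in the groups high for S phase genes, and 4.997 ± 0.159 against 2.58 ± 0.166 in the groups low for them. GMNN was 1.26 ± 0.00318, 0.939 ± 0.0183, 0.314 ± 0.0122 and 0.176 ± 0.00332 in the same order, with no overlap between any 2 groups.

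The make-up of the ring RNA, meaning the share of each subunit in the MCM2 to MCM7 UMIs, differed between clusters. The protein ring holds 1 copy of each subunit, which shares of captured RNA do not measure. MCM7 made up 38.0 ± 1.34% of the UMIs in cluster 12 and 21.0 ± 0.0233% in cluster 6. MCM6 made up 15.2 ± 1.36% in cluster 12 and 7.12 ± 0.312% in cluster 6. MCM3 went the other way, with 10.1 ± 0.320% in cluster 12 and 22.4 ± 0.0622% in cluster 6. The low clusters 1, 3 and 8 lay near cluster 12 in MCM7, with 33.9, 33.4 and 33.2%. The share of MCM7 did not follow the summed ring level over all clusters. Cluster 15, with 159 ring UMIs, had 34.9 ± 2.25%, and cluster 7, among the highest in ring level, had 31.1 ± 1.21%. Cluster 13, with a lower ring level than cluster 6, had 20.3 ± 4.06%. Clusters 10 and 13 stood apart, with ratios of MCM4 to MCM5 UMIs of 1.49 ± 0.133 and 1.91 ± 0.406, against 0.596 to 0.945 in the other 13 clusters. MCM2 was 18.4 ± 0.413% in cluster 10 and 17.6 ± 1.53% in cluster 13, above its share in every other cluster (9.18 to 13.7%). Cluster 13 had 544 ring UMIs in all and cluster 10 had 4917, and the median depth of cluster 10 was 5398.5 UMIs per cell.

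**Figure D4:**
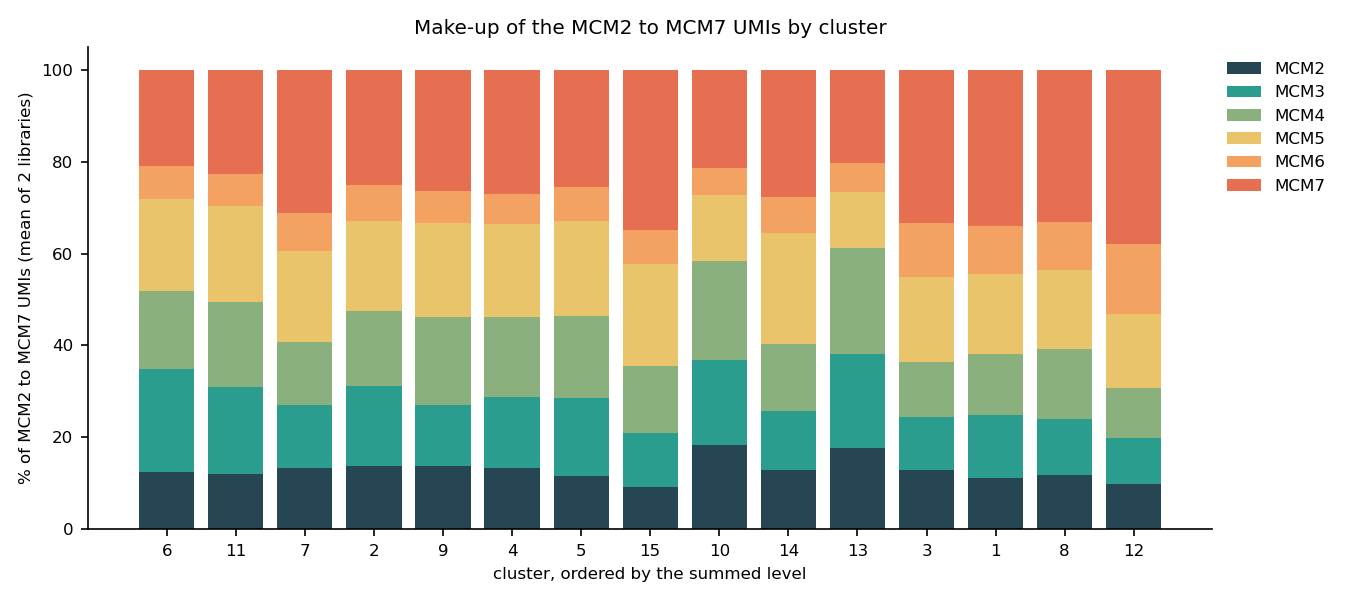
Share of each subunit in the MCM2 to MCM7 UMIs (vertical axis, mean of 2 libraries in percent) in each of the 15 clusters, ordered by the summed level. MCM7 and MCM6 take up most in cluster 12, at 38.0% and 15.2%, MCM3 takes up most in cluster 6, at 22.4%, and in clusters 10 and 13, unlike in the other clusters, MCM5 is narrower than MCM4.

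In single cells thinned to 5000 UMIs, all 6 subunits were found together in 7.05% of the cells of cluster 6 and in 0 of the 613 cells of cluster 12. On full counts the shares were 74.1% and 3.03%. A cell of cluster 6 showed 3.80 of the 6 subunits on average after thinning and a cell of cluster 12 showed 0.657. Within clusters and libraries, pairs of the 9 members other than CDT1 occurred in the same cell 1.03 to 1.203 times as often as the product of their shares, with MCM10 and CDC6 highest (300 cells against 249) and MCM7 and GMNN lowest. The ratio of CDC6 and GMNN was 1.35 in library 1 and 1.02 in library 2, so its size was not settled by these libraries.

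The genes whose levels over the 15 clusters were most like those of the members were found by Pearson correlation of log2(UMIs per 10000 + 0.1) among 2913 genes. The 15 clusters share both libraries and the cells were clustered on these counts, so the values are descriptions. For the ring subunits summed the closest were DNMT1 (0.973), the methyltransferase that copies DNA methylation, SMC2 (0.970), a condensin subunit, and UHRF1 (0.961), a partner of DNMT1. For GMNN they were the sliding clamp PCNA (0.960) and the clamp loader subunits RFC3 (0.945) and RFC2 (0.941). For CDC6 they were ACACB (0.937), an acetyl-CoA carboxylase, SLBP (0.936), the histone mRNA binding protein, and UHRF1 (0.868). For CDT1, with 157 UMIs, they were TRMT2A (0.904), SARAF (0.788) and EFTUD2 (0.778). All CDT1 levels, at most 0.0179, were below the 0.1 added before the logarithm. Clusters 7 and 14, among its highest, had 4 and 2 CDT1 UMIs, so these names are not read as a pattern. Among the subunits, MCM2, MCM3 and MCM4 were closest to each other (0.971 to 0.982), MCM5 was closest to MCM7 (0.979), and MCM4 and MCM6 were least alike (0.842).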

How the data were processed

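The authors sequenced 2 libraries made with the Chromium Single Cell 3′ v3 kit, aligned reads to ARS-UCD1.2, counted UMIs and joined both libraries in Cell Ranger 3.0.2 with the option that thins reads to match the libraries in mapped depth. The deposited counts are therefore whole numbers of UMIs per gene and cell after this depth matching, not scaled further and without a stated removal of doublets, and differences in original depth between the libraries cannot be read from them. Deposited cluster averages are scaled UMI means, and the accompanying fold changes and p-values of the authors were not used. The averages convert to whole UMI sums for 16816 genes in 15 clusters, with a largest deviation of 0.000114, which fixed the cluster of all 19096 cells. Libraries were told apart by barcode suffix.

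UMIs were summed per cluster and library and tested with edgeR 4.0.16 (TMM, filterByExpr, quasi-likelihood), 2 sums against 2. Each SE given was derived from this test, as the absolute log2 fold change over the square root of the F statistic. It is therefore not an estimate of spread apart from the p-value. Simulated counts with 200 genes changed 3-fold gave 91.0 to 95.5% recovered over the 7 comparisons of 10637 to 11434 genes. These counts were drawn independently for each sum, with a common spread for all genes. Smaller changes were not simulated, so the shares recovered do not apply to them. The shares also do not tell how many calls were false. Both sums of a library share that library, and log2 ratios between libraries correlated at 0.396 to 0.517 between the clusters compared, so a fit with the library as block was run beside the main one. Other alternatives were DESeq2 1.42.0, no filter, no TMM, 1 fit over all clusters, cells of 2000 UMIs or more, each cell reassigned to its most likely cluster profile without the 10 members (85.3% kept their cluster), and doublets left out. Scrublet in scanpy 1.11.5 set automatic thresholds that called 0 and 571 cells, so the highest 8.0% of scores per library were called instead, a choice made after this was seen.

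All 10 members are named. Of 33 other licensing genes found, those with the 4 largest changes per comparison among genes called and moving the same way in both libraries are named, and for likeness the 3 closest genes of at least 0.5 UMI per 10000. The members and lists were chosen with earlier results of these data known. In ARS-UCD2.0, another assembly, MCM7 overlaps MIR106B, MIR93 and MIR25, and CDT1 overlaps APRT. Intervals and limits from 3 counts cover counting error only. Sequences of the members were not analysed here. The deposited identifiers are ENSBTAG00000014380 (MCM2), ENSBTAG00000010721 (MCM3), ENSBTAG00000017021 (MCM4), ENSBTAG00000015595 (MCM5), ENSBTAG00000015172 (MCM6), ENSBTAG00000030965 (MCM7), ENSBTAG00000016406 (MCM10), ENSBTAG00000010384 (CDC6), ENSBTAG00000000638 (CDT1) and ENSBTAG00000017329 (GMNN).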

Additional observations from a re-analysis of the deposited data

How the results depend on the processing

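All 9 members tested stayed higher in cluster 5 than in cluster 8, and MCM2, MCM3, MCM4, MCM5 and MCM7 stayed lower in cluster 12 than in cluster 3, under all 8 alternatives with a test, as did CDC6 and GMNN in cluster 4 against 5, MCM3 and MCM6 in 2 against 4, MCM3 in 6 against 11 and GMNN in 1 against 8. Among the alternatives, leaving out cells under 2000 UMIs left the counts of genes tested and called as in the main fit in every comparison. It also changed no call of a member, so this alternative adds no support. Of 30 calls of members, 20 held under every alternative. In each library alone the plain log2 ratio had the sign of the call for all 30. A call on 2 sums against 2 nearly requires this, so it is no separate support. Under DESeq2 the genes called fell to 2265 (1 against 8), 2787 (3 against 1), 2218 (12 against 3), 1649 (5 against 8), 942 (4 against 5), 2117 (2 against 4) and 1047 (6 against 11), and the members called to 0 higher and 1 lower (1 against 8), 0 and 0 (3 against 1) and 0 lower (2 against 4). With the replicate block, which pairs the sums of a library, genes called rose to 3979 (4 against 5), 5448 (2 against 4) and 3471 (6 against 11), and members to 3 higher (3 against 1), 2 higher and 5 lower (4 against 5), 4 higher (2 against 4) and 2 higher (6 against 11). The block added 11 calls of members, each given beside its comparison, and changed no other call. Members called higher in 1 against 8 were 1 without TMM, 1 without doublets and 0 with cells assigned by profile, and 0 in 3 against 1 without TMM. No filter left 1 lower in 1 against 8 and 0 lower in 2 against 4, and 1 fit over all clusters left 1 lower in 3 against 1 and in 2 against 4. Assignment by profile gave 4 higher and 1 lower in 2 against 4 and 2 higher in 6 against 11, and 3 lower in 3 against 1 and in 4 against 5. Leaving out doublets gave 2 higher in 6 against 11. For these counts the cause was not tested.

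Values that changed sign were all uncalled. With both libraries they were MCM2 in 1 against 8 (-0.0253 by profile), MCM4 in 4 against 5 (0.00581 without TMM), and in 6 against 11 CDT1 (0.00869), GMNN (0.101), MCM4 (0.0967) and MCM7 (0.0688) without doublets, GMNN (0.0188) and MCM4 (0.0113) by profile and MCM5 (-0.0359) without TMM, which there gave 720 higher and 1215 lower in place of 966 and 852. For a library alone the plain log2 ratio was taken, without a fit or TMM scaling, so its sign can differ from the main value through the scaling too. In library 2 alone the sign differed for CDC6 in 12 against 3 (0.0896), and for CDT1 (0.177) and MCM5 (-0.0168) in 6 against 11. In library 1 alone it differed for MCM2 (-0.0347) and MCM4 (0.0180) in 1 against 8, and CDC6 (0.0858) and MCM7 (-0.0058) in 3 against 1. It also differed there for MCM4 (0.0453) and MCM5 (0.0763) in 4 against 5, and MCM5 (-0.0548) in 6 against 11. MCM5 in 6 against 11 was thus negative in each library alone, as it was without TMM scaling with both. The S phase log2 ratio of the ring subunits, 3.15, was 2.59 with 3 groups and 2.85 after thinning, and 3.06 to 3.24 in single libraries. With 3 groups, which are wider, the log2 ratios of MCM3 (3.52), MCM4 (3.31), MCM5 (2.87) and MCM2 (2.81) were also smaller. Leaving out cells under 2000 UMIs moved 16 of 154 levels by more than their SD, leaving out doublets 45 of 165, and assignment by profile 77 of 165. CDT1 and all members in clusters 13 and 15 are limited by depth.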

Other observations

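ACACB, an acetyl-CoA carboxylase known from fat metabolism, had the highest correlation with CDC6 over clusters among the 2913 genes ranked. SLBP was nearly level with it (0.937 and 0.936), and genes as scarce as CDC6 were not ranked. The ranking has the limit given above for CDC6 levels below 0.1, and genes overlapping or next to ACACB were not looked up. The level of ACACB was 1.34 ± 0.0762 UMIs per 10000 for cluster 6, 1.30 ± 0.0408 for cluster 11 and 1.04 ± 0.0216 for cluster 5. Cluster 9, which the study named as preadipocytes, had 0.727 ± 0.00673. Clusters 4 and 2 had 0.435 ± 0.0178 and 0.479 ± 0.00973. In thinned cells, ACACB and CDC6 shared a cell 1.22 and 1.195 times as often as the product of their shares within clusters in libraries 1 and 2 (389 cells against 321), SLBP and CDC6 1.25 and 1.18 times, and UHRF1 and CDC6 1.24 and 1.21 times. Over both libraries the ratio of ACACB was 1.21 with CDC6, 1.15 with MCM10, 1.13 with GMNN, 1.12 with MCM3 and 1.09 with MCM5. These pairs were chosen after the correlations over clusters had been seen.

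SKP2, singled out after its values were seen, was called higher by edgeR in 6 of the 7 comparisons. Its log2 fold change was 2.08 for cluster 1 over 8, 0.46 for 3 over 1, 1.18 ± 0.200 for 5 over 8, 0.49 ± 0.119 for 4 over 5, 0.86 for 2 over 4 and 0.87 for 6 over 11. In cluster 12 over 3 it was 0.12 ± 0.107 (edgeR adjusted p = 0.438). Comparisons that name the same cluster share its libraries.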
